A study of Rattus norvegicus with 12 samples.

Results

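The caveolin and cavin genes described here are the 8 rows of the count table with the symbols Cav1, Cav2, Cav3, Cavin1, Cavin2, Cavin3, Ehd2 and Pacsin2, out of 33294 gene symbols. All 8 were found, and all 8 passed the filter on low counts that left 18438 genes for testing. They were measured by poly(A) RNA-seq in rat PAC1 cells, an established smooth muscle line from pulmonary artery grown for its more differentiated state, in 4 groups of 3 libraries. Every group was reverse-transfected with 90 pmol of siRNA, then given a second dose after 24 h. The labels put harvest at 48 h from that dose, although the study's methods give longer intervals and the difference was not resolved. The control group received the scrambled siRNA called C2, and the other groups received an siRNA against RBPMS, RBFOX2 or QKI (gene symbol Qk). PAC1 is a single cell line and each target was depleted with 1 siRNA, so effects of the siRNA and of the loss of its target cannot be told apart. The parallel knockdowns were made to compare the parts that these 3 splicing regulators play in differentiated smooth muscle cells. The groups match the study's second RNA-seq experiment. The study reports that its PAC1 cells were less differentiated there than in the first experiment, in splicing and in RNA levels.

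Caveolae are small flask-shaped pits of the plasma membrane that are abundant in smooth muscle, endothelium and fat. Their inner coat is built from caveolins, cholesterol-binding membrane proteins, and from cavins, which assemble on caveolin from the cytoplasm. EHD2 and PACSIN2 are lipid-binding proteins that shape the neck and hold the pit at the surface. In smooth muscle, caveolae take up changes in membrane tension and gather receptors, channels and kinases of the contractile response.

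Library totals ranged from 111 to 152 M counts. The siRNA targets Qk, Rbfox2 and Rbpms were each lowest in their own knockdown (log2 fold change −3.13, −2.05 and −2.50), but they also changed in the others. Rbpms fell by 0.81 in RBFOX2 and 0.49 in QKI knockdown, Qk fell by 0.42 in RBFOX2 knockdown and rose by 0.18 in RBPMS knockdown, and Rbfox2 had values of −0.12 in RBPMS and −0.15 in QKI knockdown. RBPMS-KD 2 stood apart from its group, with a chi-square per degree of freedom of 57.8 and 45.6 against RBPMS-KD 1 and 3, where no other pair of replicates passed 21.5. Without it the log2 fold changes against control in RBPMS knockdown were 0.22 for Cav1, −0.43 for Cav2, −0.66 for Cav3, 1.28 for Cavin1, −0.83 for Cavin2, 1.83 for Cavin3, 0.16 for Ehd2 and 0.035 for Pacsin2, and the same 7 of the 8 genes passed the threshold. In that fit 10854 of all 18838 tested genes passed it. Of the 8 smooth muscle markers, all tested, 2 were higher and 6 lower in RBPMS knockdown, 2 higher and 5 lower in RBFOX2 knockdown and 2 higher and 5 lower in QKI knockdown. Beside these and the marker counts below, 30.4% of all tested genes were higher and 29.0% lower in RBPMS knockdown. The shares were 30.1% and 30.1% in RBFOX2 knockdown, and 32.9% and 34.0% in QKI knockdown. Acta2 fell by 1.65, 2.11 and 1.16 in the same order. Myh11 was higher in each, at 6.48 counts per 1000000 (CPM) in control and 13.4 CPM after RBFOX2 knockdown. Its QKI knockdown libraries (6.59 to 8.48 CPM) overlapped with control (6.34 to 6.72 CPM). Tagln had a value of 0.034 in QKI knockdown (adjusted p 0.592). It averaged 687 CPM in control, 521 after RBPMS knockdown and 329 after RBFOX2 knockdown. In control and in RBPMS, RBFOX2 and QKI knockdown, Cnn1 averaged 6.43, 2.59, 1.21 and 4.63 CPM. In that order, Myl9 averaged 303, 129, 135 and 192 CPM and Mylk 4.18, 2.02, 2.52 and 1.44 CPM. Smtn averaged 126, 117, 142 and 91.1 CPM and Des 9.90, 15.6, 11.2 and 19.5 CPM. The summed markers of other cells ranged over all libraries from 5.34 to 10.6 CPM for 6 endothelial genes, from 1.36 to 3.04 for 4 immune genes and up to 0.548 for 5 adipocyte genes. Within these lists Kdr, Ptprc and Adipoq had at most 6, 4 and 10 counts per library, but Cdh5 had 292 to 1115 and Cd68 117 to 268. Of the 5 endothelial genes tested, 3 were higher and 1 lower in both RBPMS and QKI knockdown. In RBFOX2 knockdown 0 were higher and 2 lower, and Cdh5 was among those lower in each knockdown. In control and in RBPMS, RBFOX2 and QKI knockdown, Pecam1 averaged 0.0923, 0.302, 0.137 and 0.224 CPM. In the same order, Tek averaged 1.32, 2.00, 1.22 and 2.09 CPM and Vwf 1.39, 1.10, 0.862 and 1.32 CPM. Tie1, at 2 to 12 counts per library, averaged 0.0203, 0.0692, 0.0432 and 0.0911 CPM. The 4 epithelial markers summed to at most 0.699 CPM outside QKI knockdown and to between 5.84 and 7.67 CPM after it, where the 3 tested rose, Cldn4 by 3.92 on the log2 scale, and Krt5 stayed at 0 to 6 counts. Whether these marker levels play a part in the caveola results was not tested. In bulk RNA, fewer cells that express a gene and less RNA per cell cannot be told apart.

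Caveola genes moved in both directions within each knockdown. Cavin1 and Cavin3 were higher than control and Cav2, Cav3 and Cavin2 lower in all 3 knockdowns. The Cav3 call in QKI knockdown was lost in 10 of 21 alternatives. In QKI knockdown the 2 main caveolins, Cav1 and Cav2, and Cavin2 fell by 3.63-fold, 3.79-fold and 5.09-fold, while Cavin1 and Cavin3 rose. In RBPMS and RBFOX2 knockdown Cavin1 and Cavin3 rose by more than 2-fold, Cav2 and Cavin2 fell, and Cav1 rose slightly. Against control, 7 of the 8 genes passed an adjusted p under 0.05 by edgeR's quasi-likelihood test in RBPMS knockdown, 4 higher and 3 lower. Over all tested genes 59.4% passed, 30.4% higher and 29.0% lower. In RBFOX2 knockdown all 8 passed, 5 higher and 3 lower, against 60.3% of all tested genes, with 30.1% higher and 30.1% lower. In QKI knockdown all 8 passed, 2 higher and 6 lower, against 66.9%, with 32.9% higher and 34.0% lower. With the further requirement of an absolute log2 fold change above 1, which is the study's rule, the counts were 2, 2 and 4 of 8, against 9.66%, 11.7% and 17.5% of all tested genes. The study applied that rule after other filtering and normalisation, so these shares are not its own. In the order RBPMS, RBFOX2 and QKI knockdown, these shares were 5.16%, 6.96% and 8.28% for higher genes and 4.50%, 4.73% and 9.24% for lower genes. The 4 after QKI knockdown were Cavin1, which rose, and Cav1, Cav2 and Cavin2, which fell. Near that limit, Cavin1 was under it without control 1 (0.992) or 2 (0.997), and Cavin3 passed it without control 3 (1.007) and with library totals only (1.03). The median absolute log2 fold change of the 8 genes was 0.48, 0.57 and 0.98 in RBPMS, RBFOX2 and QKI knockdown, beside 0.33, 0.33 and 0.42 over all tested genes. The 3 libraries of a knockdown did not overlap with the 3 control libraries for 7, 8 and 7 of the 8 genes, which was so for 61.7%, 68.6% and 72.3% of all tested genes.

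**Figure D1:**
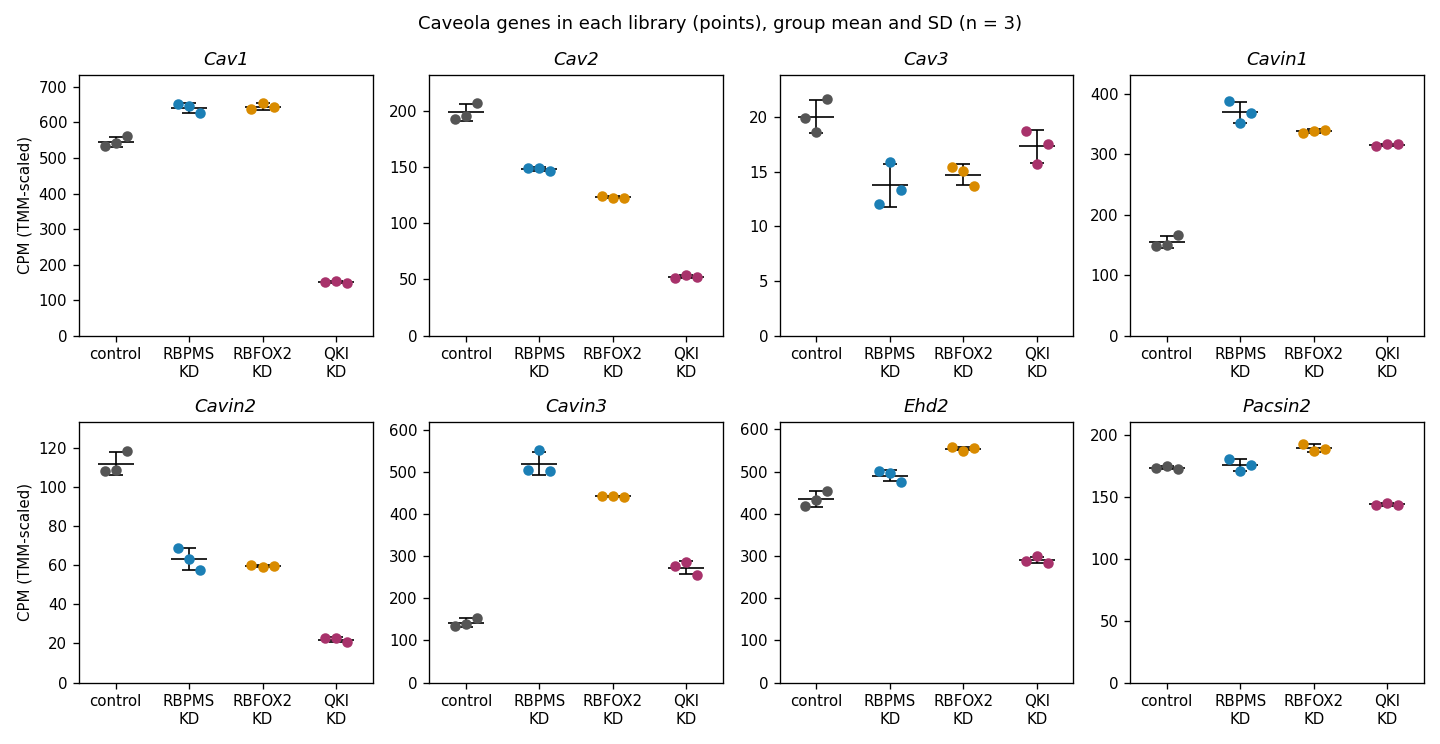
CPM (counts per 1000000 of the TMM-scaled library total, linear axis from 0) of the 8 caveola genes, with a point for each of the 3 libraries of a group and the mean and SD in black. Cav1, Cav2 and Cavin2 are lowest in QKI knockdown, while Cavin1 and Cavin3 are lowest in control.

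Caveolins come first, since caveolae do not form without them. Cav1 encodes caveolin 1, the main coat protein outside striated muscle. Its level was 535, 541 and 561 CPM in control 1, 2 and 3, 651, 646 and 625 CPM after RBPMS knockdown, 636, 654 and 643 CPM after RBFOX2 knockdown and 150.3, 153 and 148 CPM after QKI knockdown. All 3 QKI knockdown libraries lay far below every other library, and the RBPMS and RBFOX2 knockdown libraries lay above control without overlap. Cav1 fell 3.63-fold in QKI knockdown (log2 fold change −1.86, SE 0.0325, adjusted p 1.48e-17). It rose by 0.23 on the log2 scale in RBPMS knockdown (SE 0.0313, adjusted p 5.67e-06) and by 0.24 in RBFOX2 knockdown (SE 0.0313, adjusted p 3.59e-06). Of the 10707 genes that averaged 5 CPM or more, 172 fell more than Cav1 after QKI knockdown, whereas 3076 rose more than Cav1 after RBPMS knockdown. The difference in Cav1 between RBPMS and RBFOX2 knockdown did not pass the threshold in edgeR (log2 difference −0.0085, 95% confidence interval −0.075 to 0.058, adjusted p 0.834), but Cav1 was lower in RBPMS than in RBFOX2 knockdown by 0.19 in the authors' normalised table and by 0.11 with library totals only, both past the threshold.

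Caveolin 2, from Cav2, joins caveolin 1 in mixed oligomers. Cav2 was at 193, 195 and 207 CPM in control, 149, 149 and 146 CPM after RBPMS knockdown, 124, 123 and 123 CPM after RBFOX2 knockdown and 51.2, 53.8 and 52.3 CPM after QKI knockdown. The 4 groups did not overlap, and control was the highest. Cav2 fell 3.79-fold in QKI knockdown (log2 fold change −1.92, SE 0.0352, adjusted p 2.85e-17), where 150 of the 10707 genes fell more. In RBPMS and RBFOX2 knockdown the log2 fold changes were −0.42 (SE 0.0337, adjusted p 9.34e-09) and −0.69 (SE 0.0338, adjusted p 1.49e-11). Cav2 also differed between these 2 knockdowns, being higher in RBPMS knockdown by 0.27 on the log2 scale (adjusted p 3.55e-06).

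Cav1 and Cav2 are neighbours on chromosome 4 of the RefSeq assembly GRCr8, with no other gene between them in its gene table. The 300 bases around their starts (250 before and 50 after the annotated start, RefSeq, GRCr8) are shown with those of Cavin1 and Cavin2, because Cav1, Cav2 and Cavin2 fell together in QKI knockdown while Cavin1 rose. Capitals mark matches on either strand to the GC box GGGCGG, to the box known as CCAAT, to the MCAT element of TEAD factors, CATTCC, or to the AP-1 site, TGANTCA. The Cav1 window is chr4:46606288-46606587 (plus strand), that of Cav2 is chr4:46582431-46582730 (plus strand), that of Cavin1 is chr10:86396334-86396633 (minus strand) and that of Cavin2 is chr9:57805975-57806274 (minus strand), each written in the direction of transcription.
Cav1: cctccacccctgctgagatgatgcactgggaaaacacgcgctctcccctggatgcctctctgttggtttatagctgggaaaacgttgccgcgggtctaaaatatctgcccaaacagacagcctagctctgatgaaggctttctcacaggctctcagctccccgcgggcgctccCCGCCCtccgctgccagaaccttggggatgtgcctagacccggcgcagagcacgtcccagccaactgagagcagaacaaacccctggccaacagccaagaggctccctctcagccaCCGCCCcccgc
Cav2: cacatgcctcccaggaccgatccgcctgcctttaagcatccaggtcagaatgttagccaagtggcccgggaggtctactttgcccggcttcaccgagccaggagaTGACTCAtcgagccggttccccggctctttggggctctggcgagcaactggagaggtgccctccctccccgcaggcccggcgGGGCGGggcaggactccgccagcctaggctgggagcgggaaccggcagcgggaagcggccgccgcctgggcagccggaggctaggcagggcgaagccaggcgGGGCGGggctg
Cavin1: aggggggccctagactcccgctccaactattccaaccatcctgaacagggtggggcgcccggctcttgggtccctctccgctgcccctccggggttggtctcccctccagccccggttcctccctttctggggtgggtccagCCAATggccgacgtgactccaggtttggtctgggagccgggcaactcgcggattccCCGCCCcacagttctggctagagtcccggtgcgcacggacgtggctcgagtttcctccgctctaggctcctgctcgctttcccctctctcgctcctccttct
Cavin2: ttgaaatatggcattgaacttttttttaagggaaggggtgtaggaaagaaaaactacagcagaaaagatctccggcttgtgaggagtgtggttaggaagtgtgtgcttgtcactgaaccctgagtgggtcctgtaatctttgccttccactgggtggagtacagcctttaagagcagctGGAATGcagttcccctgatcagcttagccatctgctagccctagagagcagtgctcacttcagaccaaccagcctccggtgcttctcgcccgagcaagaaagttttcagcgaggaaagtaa

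In the windows shown, Cav1 and Cav2 each held 2 GC boxes, Cavin1 held 1 GC box and 1 CCAAT, and Cavin2 held 1 CATTCC and no GC box. The AP-1 match in Cav2 starts at base 106 of its window. Of the 8 genes, 7 had a window in the table, and Cavin3 had none. There were 8 windows in all because Cav1 has a second annotated start, whose window held no match to any motif searched. GGGCGG was matched in 4 of the 8 windows and in 33.1% of 33469 windows of the same length, CCAAT in 3 (37.5%), CATTCC in 2 (14.2%) and TGANTCA in 1 (7.33%). These shares were not matched for base content. The median GC content was 51.7% over all windows. The 4 windows with GGGCGG had 61.7% (Cav1), 70.3% (Cav2), 66.3% (Cavin1) and 64.3% (Ehd2), and the others had 48.7% to 63%. The CArG box, the SRF element of smooth muscle genes, was searched by name on both strands, matched in 1.64% of all windows and in 0 of the 8. No matches shared bases in these windows.

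Caveolin 3, from Cav3, is the caveolin of striated muscle and is also made in some smooth muscle. Its level was 19.9, 18.7 and 21.6 CPM in control, 12.1, 15.9 and 13.3 CPM after RBPMS knockdown, 15.5, 15.1 and 13.7 CPM after RBFOX2 knockdown and 18.7, 15.7 and 17.5 CPM after QKI knockdown. The RBPMS and RBFOX2 knockdown libraries lay below control, while those of QKI knockdown overlapped with it. Cav3 fell in RBPMS knockdown (log2 fold change −0.54, SE 0.0887, adjusted p 5.06e-05) and in RBFOX2 knockdown (log2 fold change −0.44, SE 0.0878, adjusted p 3.12e-04). Its log2 fold change of −0.21 in QKI knockdown (SE 0.0874, adjusted p 0.0434) missed the threshold without control 1 (−0.22) or 3 (−0.15), RBFOX2-KD 1 (−0.21) or 2 (−0.21), or QKI-KD 2 (−0.14) or 3 (−0.22), and with library totals only (−0.12). In the authors' normalised table this log2 fold change was −0.09 and also missed the threshold. Cav3 had the widest spread of the 8 genes, with a coefficient of variation of 14.2% in RBPMS knockdown. The 6 striated muscle markers summed to between 3.66 and 4.26 CPM in control, 4.11 and 4.59 after RBPMS knockdown, 6.08 and 6.98 after RBFOX2 knockdown and 4.38 and 4.49 after QKI knockdown, with Myog at 0 to 26 counts per library. Of the 5 tested, 1 was higher and 1 lower in RBPMS knockdown, 3 higher and 0 lower in RBFOX2 knockdown and 2 higher and 2 lower in QKI knockdown. Of all tested genes 59.4%, 60.3% and 66.9% passed in either direction in RBPMS, RBFOX2 and QKI knockdown. Myod1 rose in each, by 2.24, 2.30 and 1.54 on the log2 scale from a control mean of 0.336 CPM. In control and in RBPMS, RBFOX2 and QKI knockdown, Tnnt2 averaged 2.28, 1.43, 2.28 and 1.75 CPM. In the same order, Tnnt3 averaged 0.197, 0.280, 0.640 and 0.0851 CPM. Ckm averaged 0.718, 0.491, 0.622 and 0.698 CPM and Ttn 0.465, 0.686, 0.996 and 0.737 CPM. The part of these markers in the Cav3 values was not tested.

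**Figure D2:**
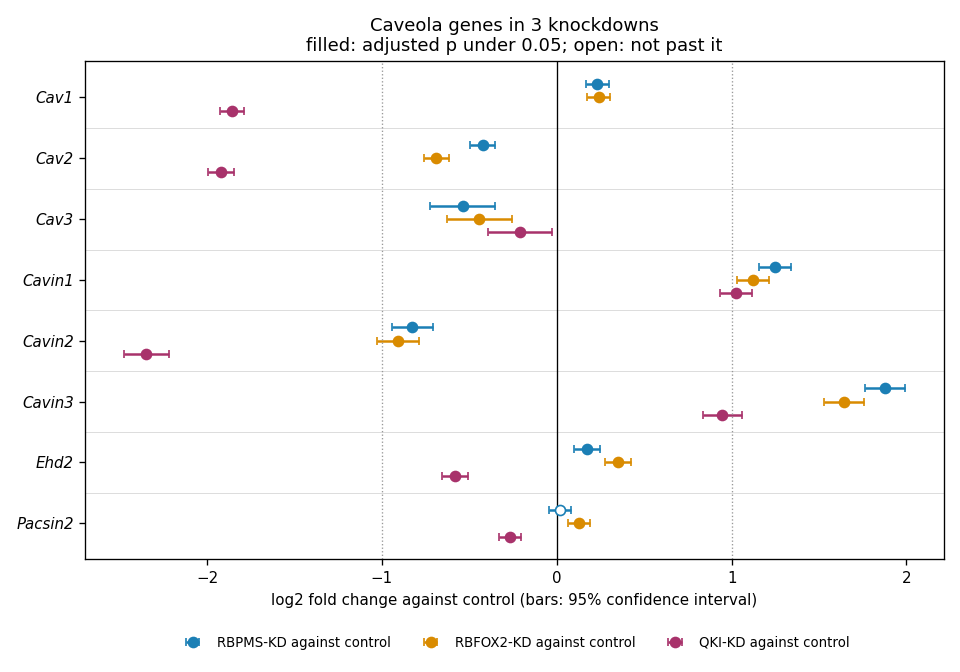
Log2 fold change of the 8 genes against control in each knockdown (points), with the 95% confidence interval as bars and dotted lines at 1 and −1. Cavin1 and Cavin3 lie to the right of 0 and Cav2, Cav3 and Cavin2 to the left in all 3 knockdowns. Cav1 and Ehd2 lie on the left in QKI knockdown and on the right in RBPMS and RBFOX2 knockdown.

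The cavins did not move as a family. Cavin1 encodes the coat protein without which caveolae are lost and caveolins spread over the membrane. It was at 149, 150.1 and 167 CPM in control, 387, 353 and 368 CPM after RBPMS knockdown, 335, 339 and 341 CPM after RBFOX2 knockdown and 313, 317 and 317 CPM after QKI knockdown. Every knockdown library lay above every control library. Cavin1 rose 2.38-fold in RBPMS knockdown (log2 fold change 1.25, SE 0.0433, adjusted p 2.69e-13), 2.18-fold in RBFOX2 knockdown (log2 fold change 1.12, SE 0.0431, adjusted p 5.99e-13) and 2.03-fold in QKI knockdown (log2 fold change 1.02, SE 0.0431, adjusted p 9.43e-13). The knockdowns differed among themselves by at most 0.23 on the log2 scale. The difference between RBPMS and RBFOX2 knockdown of 0.13 (adjusted p 0.0171) missed the threshold without RBFOX2-KD 1 (0.12) or RBPMS-KD 1 (0.092) and changed sign in the normalised table (−0.0056). Cavin1 was higher in RBPMS than in QKI knockdown by 0.23 (adjusted p 1.82e-04), but not past the threshold when scaled to library totals (0.097) or in the normalised table (0.072). The difference of 0.10 between RBFOX2 and QKI knockdown (adjusted p 0.0471) was lost in 12 of 21 alternatives, among them the fits without RBFOX2-KD 1 (0.10), 2 (0.088) or 3 (0.088), RBPMS-KD 3 (0.10) and QKI-KD 1 (0.086), 2 (0.091) or 3 (0.095).

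Cavin3 encodes a cavin that binds cavin 1 and caveolin 1 and takes part in the budding of caveolae. Its level was 134, 138 and 154 CPM in control, 505, 554 and 504 CPM after RBPMS knockdown, 443, 445 and 442 CPM after RBFOX2 knockdown and 278, 287 and 256 CPM after QKI knockdown. No groups overlapped, and QKI knockdown stood between control and the other two. Cavin3 rose 3.67-fold in RBPMS knockdown (log2 fold change 1.88, SE 0.05401, adjusted p 2.79e-14), where 30 of the 10707 genes rose more, and 3.12-fold in RBFOX2 knockdown (log2 fold change 1.64, SE 0.0536, adjusted p 6.99e-14), where 63 rose more. In QKI knockdown it rose 1.93-fold (log2 fold change 0.95, SE 0.0529, adjusted p 4.30e-11), less than in RBPMS knockdown by 0.93 on the log2 scale (SE 0.0526, adjusted p 8.51e-11). Cavin3 was also higher in RBPMS than in RBFOX2 knockdown by 0.23 (adjusted p 0.00102), a call lost in the normalised table (0.029).

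Cavin2 encodes a cavin that curves membrane and is needed for caveolae in some tissues. It was at 108, 109 and 119 CPM in control, 68.8, 63.05 and 57.6 CPM after RBPMS knockdown, 60.1, 59.2 and 59.8 CPM after RBFOX2 knockdown and 22.7, 22.8 and 20.5 CPM after QKI knockdown. The knockdown libraries lay below control, and those of QKI knockdown lay below all others. Cavin2 fell 5.09-fold in QKI knockdown (log2 fold change −2.35, SE 0.0598, adjusted p 1.43e-15), where 68 of the 10707 genes fell more, which was the largest change of the 8 genes in any of the 3 knockdowns. In RBPMS and RBFOX2 knockdown its log2 fold changes were −0.83 (SE 0.0563, adjusted p 1.25e-09) and −0.91 (SE 0.0562, adjusted p 3.08e-10). These knockdowns differed in Cavin2 by 0.081 (95% confidence interval −0.039 to 0.20, adjusted p 0.237), which passed the threshold without RBPMS-KD 3 (0.14).

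Of the genes for proteins of the caveolar neck, Ehd2 changed in the same direction as Cav1 in each knockdown, and Pacsin2 did so in RBFOX2 and QKI knockdown. Ehd2 encodes an ATPase that forms a ring at the neck and keeps caveolae at the surface. Its level was 418, 433 and 454 CPM in control, 501, 497 and 475 CPM after RBPMS knockdown, 558, 549.8 and 556 CPM after RBFOX2 knockdown and 289, 299 and 283 CPM after QKI knockdown. No groups overlapped, and the order ran from RBFOX2 knockdown through RBPMS knockdown and control to QKI knockdown. Ehd2 fell in QKI knockdown (log2 fold change −0.58, SE 0.03602, adjusted p 1.67e-10) and rose in RBPMS knockdown (log2 fold change 0.17, SE 0.0359, adjusted p 4.79e-04) and RBFOX2 knockdown (log2 fold change 0.35, SE 0.0359, adjusted p 1.98e-07). Pacsin2 encodes an F-BAR protein that bends membrane into a neck. It was at 174, 175 and 172 CPM in control, 181, 171 and 176 CPM after RBPMS knockdown, 193, 187 and 189 CPM after RBFOX2 knockdown and 143, 145 and 144 CPM after QKI knockdown. The RBPMS knockdown libraries overlapped with control, whereas those of RBFOX2 knockdown lay above it and those of QKI knockdown below it. Pacsin2 fell by 0.27 on the log2 scale in QKI knockdown (SE 0.0306, adjusted p 5.40e-07) and rose by 0.13 in RBFOX2 knockdown (SE 0.0305, adjusted p 0.00179). In RBPMS knockdown its log2 fold change was 0.018 (95% confidence interval −0.046 to 0.083, adjusted p 0.635), with the opposite sign without RBPMS-KD 1 (−0.0020), with only library totals as scaling (−0.026) and in the normalised table (−0.024).

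The knockdowns were next compared directly, by differences that leave out the control values shared by the comparisons above. Control libraries still entered the filter, the scaling and the estimate of spread of the common fit. RBPMS and RBFOX2 knockdown differed in 5 of the 8 genes at an adjusted p under 0.05, 3 higher and 2 lower in RBPMS knockdown. Of all tested genes 56.7% did, 28.8% higher and 27.9% lower. Of the 8, 0 differed by more than 1 on the log2 scale, against 7.52% of all tested genes. The difference was largest for Cav2 with TMM scaling (0.27, against −0.18 for Ehd2), but for Ehd2 with library totals only (−0.28, against 0.17 for Cav2) and in the normalised table (−0.37, against 0.16). Cav3 was the gene that passed in addition without RBPMS-KD 2 (−0.22). RBPMS and QKI knockdown differed in all 8 genes (61.0% of all tested genes, 32.0% higher and 29.0% lower), and 7 were higher in RBPMS knockdown. Of these Cav1, Cav2 and Cavin2, 3 in all, passed 1 on the log2 scale, against 12.2% of all tested genes. RBFOX2 and QKI knockdown also differed in all 8 (68.5% of all tested genes, 35.0% higher and 33.5% lower), with 7 higher in RBFOX2 knockdown and the same 3 past 1, against 18.4%. Cav3 was the gene that was lower than in QKI knockdown in both, by 0.33 in RBPMS knockdown (adjusted p 0.00417) and by 0.23 in RBFOX2 knockdown (adjusted p 0.0271), the second of which was not past the threshold without RBFOX2-KD 3 (−0.19), QKI-KD 1 (−0.18) or QKI-KD 3 (−0.23). The largest differences were those of Cav1, which was higher than in QKI knockdown by 2.09 in RBPMS knockdown and by 2.10 in RBFOX2 knockdown (SE 0.0327 and 0.0327, adjusted p 5.20e-18 and 3.84e-18).

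Ratios of counts within a library do not depend on how libraries are scaled, and were used to set coat genes against each other. They are not ratios of molecules, because gene length was not used. The Cav2 to Cav1 ratio was 0.364 ± 0.00458 (SD, n = 3) in control, 0.231 ± 0.00208 after RBPMS knockdown, 0.191 ± 0.00344 after RBFOX2 knockdown and 0.348 ± 0.00710 after QKI knockdown. The neighbouring caveolin genes therefore fell nearly in proportion in QKI knockdown, by a log2 difference in ratio of −0.062, and shifted apart in RBPMS and RBFOX2 knockdown, by −0.65 and −0.93. The Cavin1 to Cav1 ratio was 0.285 ± 0.0113 in control, 0.577 ± 0.0270 after RBPMS knockdown, 0.525 ± 0.00541 after RBFOX2 knockdown and 2.10 ± 0.0416 after QKI knockdown. On the log2 scale it was higher than control by 1.02, 0.88 and 2.88. In all 6 tests the knockdown libraries did not overlap with control. Each gave p = 0.1 by a two-sided exact permutation test (0.1 after adjustment over the 6). That is the smallest value that 3 against 3 libraries allow, so no ratio could pass the threshold used for genes. No conclusion is drawn from these tests. The share of other gene ratios without overlap is not given here. For single genes it was 61.7%, 68.6% and 72.3% of all tested genes in RBPMS, RBFOX2 and QKI knockdown.

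**Figure D3:**
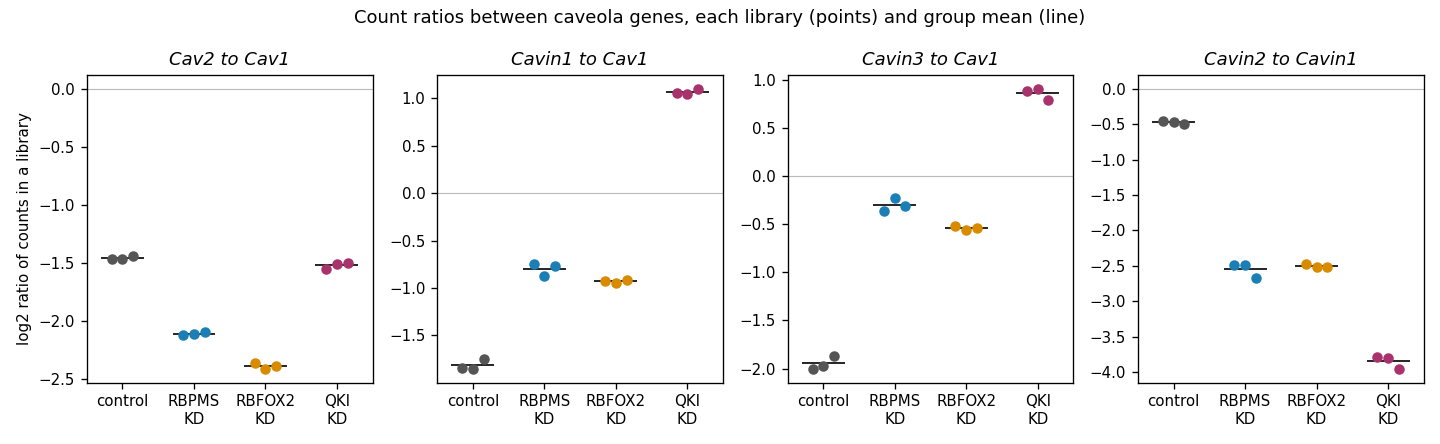
Log2 ratio of the counts of 2 genes in each library (points) with the group mean (line), on axes that do not start at 0. Cavin1 to Cav1 and Cavin3 to Cav1 pass from below 0 in control, RBPMS and RBFOX2 knockdown to above 0 after QKI knockdown.

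The closest relatives of these genes were examined from a list of 6 paralogues. Cavin4, the cavin of striated muscle, was at 15.4, 15.4 and 16.2 CPM in control, 6.92, 6.04 and 8.68 CPM after RBPMS knockdown, 7.26, 7.44 and 8.095 CPM after RBFOX2 knockdown and 6.76, 7.22 and 6.35 CPM after QKI knockdown. All knockdown libraries lay below control, with log2 fold changes of −1.12 (SE 0.0951, adjusted p 1.88e-08), −1.05 (SE 0.0937, adjusted p 3.61e-08) and −1.21 (SE 0.09505, adjusted p 4.22e-09). Cavin4 was the paralogue that passed an absolute log2 fold change of 1, and it did so in each knockdown, except with library totals only in RBFOX2 knockdown (−0.99). Of the 6 paralogues, 4 were higher and 1 lower in RBPMS knockdown, 4 higher and 2 lower in RBFOX2 knockdown, and 1 higher and 4 lower in QKI knockdown, where 59.4%, 60.3% and 66.9% of all tested genes passed in either direction.

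The other members of the EHD family act in endosomal recycling. Ehd3 rose in RBFOX2 knockdown, from 7.69 ± 0.0462 to 13.1 ± 0.276 CPM (log2 fold change 0.77, adjusted p 1.86e-09), and in RBPMS knockdown (0.26, adjusted p 6.42e-04), and fell in QKI knockdown (−0.40, adjusted p 8.22e-06), the same directions as Ehd2. Ehd1 rose by 0.28 and 0.24 in RBPMS and RBFOX2 knockdown and changed by 0.021 in QKI knockdown (adjusted p 0.611). Ehd4 rose by 0.19 in RBPMS knockdown and 0.27 in QKI knockdown. Its change of −0.083 in RBFOX2 knockdown (adjusted p 0.0387) was lost with library totals only (−0.028) and without control 2 (−0.071) or 3 (−0.072) or RBFOX2-KD 1 (−0.082) or 3 (−0.086). Pacsin3, the PACSIN of muscle, rose by 0.27 and 0.30 in RBPMS and RBFOX2 knockdown and fell by 0.38 in QKI knockdown. Pacsin1, the neuronal member, was at 1.802 ± 0.174 CPM in control, with log2 fold changes of −0.26, 0.42 and −0.34 (adjusted p 0.102, 0.00718 and 0.0293). The last was not past the threshold without control 1 (−0.26) or QKI-KD 2 (−0.21), or with library totals only (−0.25).

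A list of 10 caveola partners held genes for proteins that bind or modify the coat or mark related membrane domains. In RBPMS knockdown 4 were higher and 4 lower, in RBFOX2 knockdown 4 and 3, and in QKI knockdown 5 and 4, so that 8, 7 and 9 of 10 passed, against 59.4%, 60.3% and 66.9% of all tested genes. The list's median log2 fold changes were −0.024, 0.0035 and 0.046, near those of all tested genes (0.0085, 0.015 and 0.0070). Ror1, a receptor-like protein reported to hold cavin 1 and caveolin 1 together, was the member that passed an absolute log2 fold change of 1, although in RBFOX2 knockdown it was under it without control 1 (0.96) or 2 (0.98) or RBFOX2-KD 1 (0.93). It was at 3.84, 3.98 and 4.803 CPM in control, 10.2, 7.92 and 10.3 CPM after RBPMS knockdown, 9.56, 8.59 and 7.51 CPM after RBFOX2 knockdown and 10.9, 9.87 and 10.95 CPM after QKI knockdown. Its knockdown libraries lay above control throughout, with log2 fold changes of 1.16 (SE 0.112, adjusted p 9.12e-08), 1.02 (SE 0.111, adjusted p 4.06e-07) and 1.33 (SE 0.111, adjusted p 9.10e-09).

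A second list held 6 signalling proteins of smooth muscle that are found in caveolae, of which 5 were tested. Kcnma1, the large-conductance potassium channel, had 1 to 10 counts per library and was not tested. The 5 tested genes all fell in QKI knockdown, where the list's median log2 fold change was −0.68 (0.0070 over all tested genes), while 1 was higher and 2 lower in RBPMS knockdown and 0 higher and 3 lower in RBFOX2 knockdown. Of all tested genes 34.0%, 29.0% and 30.1% were lower in QKI, RBPMS and RBFOX2 knockdown. Atp2b4, the plasma membrane calcium pump PMCA4, was at 34.1, 33.8 and 35.2 CPM in control and 8.03, 9.07 and 8.704 CPM after QKI knockdown, a 3.99-fold fall (log2 fold change −1.998, SE 0.0643, adjusted p 2.69e-14). In RBPMS and RBFOX2 knockdown its log2 fold changes were −0.11 and −0.10 (adjusted p 0.117 and 0.172). The first passed the threshold without RBPMS-KD 3 (−0.16) and with library totals only (−0.16), and the second without RBPMS-KD 2 (−0.098).

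**Figure D4:**
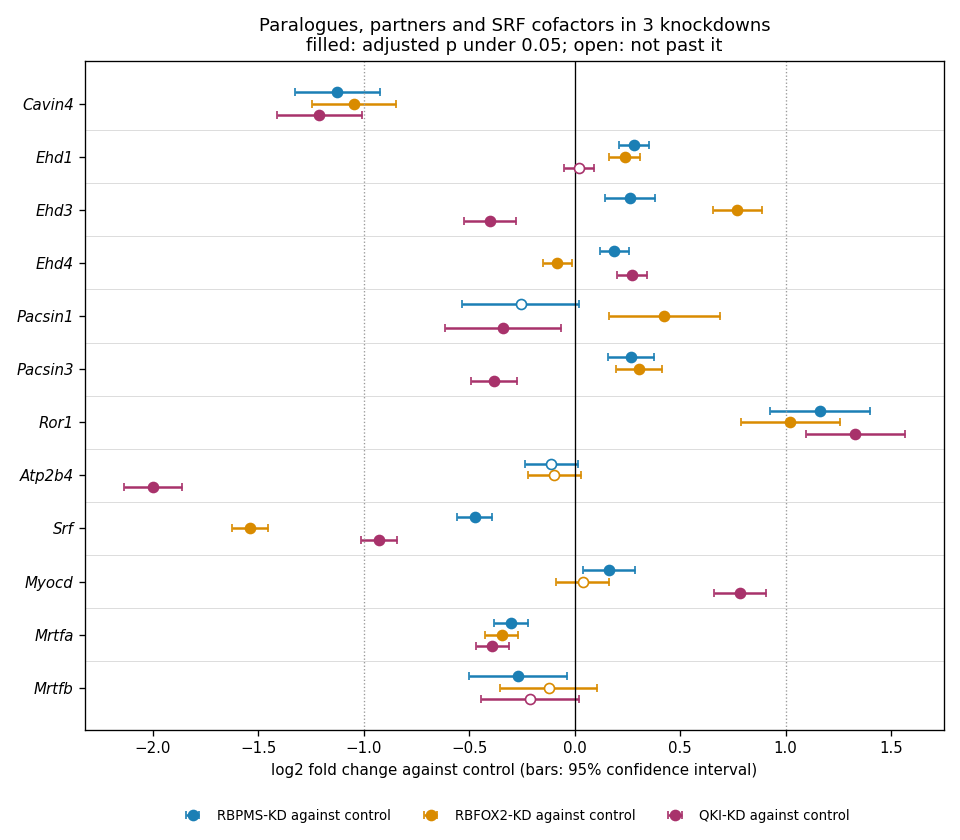
Log2 fold change against control of the 6 paralogues, of Ror1 and Atp2b4 and of Srf and its cofactors (points), with the 95% confidence interval as bars. Cavin4, Srf and Mrtfa lie left of 0 and Ror1 right of 0 in all 3 knockdowns, and Atp2b4 stands apart in QKI knockdown.

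SRF and its cofactors of the myocardin family are known regulators of caveolin and cavin genes in smooth muscle, so their levels are given beside those above. Srf was at 97.02, 100.01 and 96.96 CPM in control, 69.9, 67.2 and 74.6 CPM after RBPMS knockdown, 34.2, 34.4 and 32.7 CPM after RBFOX2 knockdown and 51.2, 51.2 and 52.3 CPM after QKI knockdown. It was lowest in RBFOX2 knockdown (log2 fold change −1.54, SE 0.0404, adjusted p 4.24e-15), then in QKI knockdown (log2 fold change −0.93, SE 0.0396, adjusted p 1.17e-12) and in RBPMS knockdown (log2 fold change −0.47, SE 0.0392, adjusted p 1.42e-08). Mrtfa fell by 0.30, 0.35 and 0.39 in RBPMS, RBFOX2 and QKI knockdown. Myocd rose in QKI knockdown, from 22.1 ± 1.25 to 38.1 ± 0.783 CPM (log2 fold change 0.78). Its values in RBPMS and RBFOX2 knockdown were 0.16 and 0.038 (adjusted p 0.0249 and 0.602), and the first was lost without control 2 (0.12), RBPMS-KD 1 (0.11) or RBPMS-KD 3 (0.13). Mrtfb changed by −0.27 in RBPMS knockdown (adjusted p 0.0446), a call lost in 11 of 21 alternatives, with a smallest change of −0.091 without RBPMS-KD 2, which was also the library without which Mrtfb passed in RBFOX2 (−0.13) and QKI knockdown (−0.21). The part of these regulators in the caveola results was not tested.

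The genes whose levels followed Cav1 and Cavin1 most closely over the 12 libraries were sought among 10046 genes, those of the 10707 above whose symbol is not a provisional one (LOC, RGD or AABR) and the gene itself left out. For Cav1 they were Cast, the calpain inhibitor calpastatin, with Pearson's r of 0.999, Ccnd1, the gene for cyclin D1, with 0.998, and Fam120a with 0.998. Ccnd1 was at 1262 CPM in control, 1480.3 after RBPMS knockdown, 1557 after RBFOX2 knockdown and 268 after QKI knockdown. For Cavin1 the closest were Hs6st2, a heparan sulphate sulphotransferase, with 0.997, the splicing factor Srsf6 with 0.996 and Fam114a1 with 0.996. Srsf6 was at 127 CPM in control, 215 after RBPMS knockdown, 208 after RBFOX2 knockdown and 193 after QKI knockdown. Within the family, r was 0.99 for Cav2 and Cavin2, 0.98 for Ehd2 and Pacsin2, 0.96 for Cav1 and Ehd2, 0.94 for Cavin1 and Cavin3 and 0.90 for Cav1 and Cav2, but −0.093 for Cav1 and Cavin1. These correlations describe 12 libraries that fall into 4 groups, all genes share those libraries and their scaling, and genes are not independent replicates.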

How the data were processed

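Raw counts per gene symbol and a quantile-normalised signal were deposited by the authors for the same 12 libraries. Per the study's methods, reads were subsampled to equal depth, aligned with STAR to mRatBN7.2 and counted with featureCounts on a RefSeq annotation, then passed through the noise filter noisyR and quantile normalisation. The deposited counts were not of equal depth (111 to 152 M), and every total exceeded the stated subsampling depth, even with both ends of each pair counted, so these counts do not match that step as described. How strand and reads shared between genes were handled is not given in the sources used here, so values of close paralogues are uncertain to that extent. Of the counts from 1 to 19, 68.1% were even, against 50.9% of counts above 1000, so fragments may have been counted by both ends, and a fit on halved counts was run. The normalised signal deposited by the authors served as an alternative only, with limma 3.58.1 on log2 values after adding 1 or 20.

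Counts of 18438 genes kept by filterByExpr (99.99% of counts) were scaled by TMM and tested with edgeR 4.0.16 in R 4.3.3 (glmQLFit and glmQLFTest, two-sided) over all 12 libraries, with 1 coefficient per group, contrasts for 6 comparisons and Benjamini-Hochberg adjustment over all tested genes. The SE is the absolute log2 fold change divided by the square root of F. CPM are per TMM-scaled total, and since transcript lengths were not used, they are compared within a gene. DESeq2 1.42.0 was an alternative. Groups and replicate numbers come from sample titles. Pairs of replicates differed by more than sampling noise (chi-square per degree of freedom from 4.64 to 21.5, and 45.6 and 57.8 for the pairs with RBPMS-KD 2). The study's methods call replicates independent biological ones. Members and lists were chosen with earlier results of these data known. Named genes were the 8 members, the 3 siRNA targets, all paralogues and SRF cofactors, partners past an absolute log2 fold change of 1, and the 3 genes most correlated with Cav1 and with Cavin1; markers of other cells and of smooth muscle were named from their lists after their values were seen. Promoter windows came from a RefSeq table of GRCr8, a build other than the authors'. Splicing was not analysed here.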

Additional observations from a re-analysis of the deposited data

Results flagged for a closer look

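Genes that moved in opposite directions against control in 2 knockdowns, with a direct test of the difference past an adjusted p of 0.05 in edgeR, were taken for a closer look. Cav1 was higher in RBPMS than in QKI knockdown by 2.09 on the log2 scale and higher in RBFOX2 than in QKI knockdown by 2.10, with all 3 libraries of each group apart. Ehd2 showed the same pattern, with differences of 0.76 (adjusted p 8.89e-12) and 0.93 (adjusted p 3.50e-13). Pacsin2 was higher in RBFOX2 than in QKI knockdown by 0.39 (adjusted p 3.69e-09), on the 2 sides of control. With 3 libraries per group, outlying libraries were not tested for gene by gene.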

How the results depend on the processing

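Over the 6 comparisons and all alternatives, 961 values of the 8 genes kept their direction and their side of the threshold, 33 lost the call, 5 gained it and 9 changed sign. The sign changes were Pacsin2 in RBPMS knockdown when scaled to library totals (−0.026), in the normalised table with a pseudocount of 1 (−0.024) or 20 (−0.024) and without RBPMS-KD 1 (−0.0020 to 0.035 over all single omissions), and, between RBPMS and RBFOX2 knockdown, Cav1 without RBFOX2-KD 2 (0.0086) or RBPMS-KD 3 (−0.019 to 0.010 over all single omissions), Cavin1 in the normalised table (−0.0056 with either pseudocount) and Cavin2 with library totals only (−0.018). Among the other named genes Myocd in RBFOX2 knockdown changed sign without control 2 (−0.0087 to 0.070 over all single omissions). Requiring an absolute log2 fold change above 1 left 2, 2 and 4 of the 8 genes in RBPMS, RBFOX2 and QKI knockdown against control, and 0, 3 and 3 for RBPMS against RBFOX2, RBPMS against QKI and RBFOX2 against QKI. In QKI knockdown that number was 5 in the normalised table and under scaling to library totals. Leaving out 1 library gave 7 to 7, 8 to 8, 7 to 8, 4 to 6, 8 to 8 and 6 to 8 genes called in the 6 comparisons in the same order. With all libraries, 59.4%, 60.3%, 66.9%, 56.7%, 61.0% and 68.5% of all tested genes were called in these comparisons. The log2 ratio differences of RBFOX2 knockdown became −1.009 for Cav2 to Cav1 and 0.79 for Cavin1 to Cav1 in the normalised table, and that of Cav2 to Cav1 in QKI knockdown became −0.097. Scaling to library totals in place of TMM moved the median of all genes by −0.099 and −0.13 in RBPMS against RBFOX2 and RBPMS against QKI knockdown. The median moved by −0.032 in RBFOX2 against QKI knockdown. Against control it moved by −0.044, 0.054 and 0.086 in RBPMS, RBFOX2 and QKI knockdown. The cause of these shifts was not tested. Replicate numbers did not pair the libraries (correlations of deviations from −0.055 to 0.039, and the same number gave the highest value in 10 of 36 cases). With the replicate block, 10800, 11001 and 12235 genes passed against control in RBPMS, RBFOX2 and QKI knockdown, against 10946, 11113 and 12336 without it. Of the 8 genes, the block ended the call of Cav3 in QKI knockdown (−0.21, adjusted p 0.0613) and changed no other call.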

Other observations

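Count ratios that were chosen after the values were seen set the other cavins against the coat genes, and no test was run on them. The Cavin3 to Cav1 ratio was 0.260 ± 0.0128 (SD, n = 3) in control, 0.813 ± 0.0406 in RBPMS knockdown, 0.688 ± 0.00769 in RBFOX2 knockdown and 1.82 ± 0.0777 in QKI knockdown. The Cavin2 to Cavin1 ratio was 0.720 ± 0.00874 in control, 0.171 ± 0.0125 in RBPMS knockdown, 0.176 ± 0.00266 in RBFOX2 knockdown and 0.0697 ± 0.00434 in QKI knockdown. Between these 2 genes, counts moved from Cavin2 towards Cavin1 in each knockdown. Cavin3, which rose by a larger fold than Cavin1 in RBPMS and RBFOX2 knockdown, is not part of this ratio.

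The genes on either side of Cav2 and Cav1 were also looked up after the values were seen. Tes, which encodes the focal adhesion protein testin, lies before Cav2, and Met, the receptor of hepatocyte growth factor, lies after Cav1. Tes was at 288, 292 and 282 CPM in control and 195, 199 and 197 CPM in QKI knockdown (log2 fold change −0.54, SE 0.0305, adjusted p 4.66e-11), while Met was at 60.3, 59.9 and 63.5 CPM and 36.3, 38.1 and 37.3 CPM (log2 fold change −0.72, SE 0.0553, adjusted p 3.17e-09). Both fell in QKI knockdown, by less than Cav1 and Cav2. In RBPMS and RBFOX2 knockdown, Tes had log2 fold changes of −0.15 and −0.010 (adjusted p 3.35e-04 and 0.788) and Met had 0.0034 and −0.036 (adjusted p 0.963 and 0.588).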
